A study of Mus musculus with 5 samples.

Results

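The 10 genes described here mark fibroblasts of the heart or encode proteins of the extracellular microfibrils and collagen fibres that fibroblasts lay down: Pdgfra, Tcf21, Thy1, Ddr2, Postn, Dpt, Pcolce, Fbn1, Mfap5 and Fbln1. They were taken by gene symbol from a table of 40624 genes. All 10 were found and all 10 had enough reads to be among the 17835 genes tested. RNA was read from atria of C57BL/6 mice at postnatal day 1. The 3 control libraries (2, 4 and 6) are labelled SLN-Cre with a single floxed Nkx2-5 allele, and the 2 mutant libraries (5 and 7) are labelled SLN-Cre with Nkx2-5 floxed on both alleles. Every animal thus carried the Cre and at least 1 floxed allele, and no library without Cre was analysed here. Nkx2-5 is a homeodomain transcription factor of heart muscle, and Sln, after which the Cre is named, is known as a gene of atrial muscle cells rather than of fibroblasts. Whether a library came from 1 animal or from a pool was not given in the sources used here, and the p-values then speak only for the spread among these 5 samples.

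Cardiac fibroblasts arise largely from the epicardium, the outer cell layer of the heart, and build its connective tissue. Pdgfra and Ddr2 are receptors by which they sense growth factors and collagen, and Tcf21 is a transcription factor needed for the lineage to form. Microfibrils are threads of fibrillin outside the cell, decorated with small glycoproteins such as that of Mfap5 and joined to elastin and basement membranes by fibulins such as that of Fbln1. In the newborn heart this matrix is being assembled quickly.

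The matrix genes Mfap5, Fbln1 and Pcolce were lower in mutant atria and the surface marker Thy1 was higher, while the other 6 members did not pass the test. Mfap5 fell by 38.6%, Fbln1 fell by 36.6% and Pcolce fell by 26.8%, and Thy1 rose by 56.6%. Dpt was estimated at 0.670 of its control level and did not pass. Pdgfra, Tcf21, Ddr2, Postn and Fbn1 did not pass either. In counts, 3 of 10 members were called lower and 1 of 10 higher by edgeR's quasi-likelihood test (threshold 0.05 after adjustment over all tested genes), beside 3.57% of all tested genes called lower and 3.02% called higher. Without control 2 or control 6 the count of members called higher was 0. The call of Thy1 was lost without control 2, control 6 or mutant 5, and that of Pcolce without control 2, control 4 or mutant 7. The members' median log2 fold change, mutant over control, was -0.20, beside 0.01 for all tested genes. Mutant values lay wholly below control values for 5 members and wholly above for 1, as they did for 19.2% and 18.6% of all tested genes. Tissue RNA cannot separate fewer cells of a type from less RNA per cell, and this holds for each value given here.

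The libraries held 58501214 to 60899334 gene counts in the controls, with 78841494 in mutant 5 and 69648013 in mutant 7. Nkx2-5, the targeted gene, stood at 71.3 to 76.8 CPM (the usual counts-per-million scale, with TMM library factors) in the controls and at 5.79 and 5.21 CPM in mutants 5 and 7, which matches the labels. Markers of cardiomyocytes (7 genes, among them the atrial light chain genes Myl7 and Myl4) summed to 54522 to 57562 CPM in the controls and to 57455 and 62748 CPM in mutants 7 and 5.

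Per length, the members ranged over more than a decade of levels. In control atria Dpt stood highest at 173 ± 18.6 CPM per kilobase (SD, n = 3), at percentile 98.4 of tested genes, followed by Postn at 144 ± 11.1. Tcf21 (74.9 ± 4.32), Fbln1 (63.1 ± 6.32), Pcolce (47.3 ± 4.72) and Fbn1 (19.9 ± 2.38) came next on the same scale. Mfap5 stood at 10.1 ± 0.716, Pdgfra at 8.54 ± 0.924, Thy1 at 4.40 ± 0.592 and Ddr2 at 3.15 ± 0.331 CPM per kilobase (SD, n = 3). Among neighbours in this order, the control libraries of Dpt and Postn overlapped, as did those of Mfap5 and Pdgfra, and those of the other pairs did not. Lengths are those of the deposited table. With exonic lengths of GENCODE vM21 the order changed in 3 places: Postn came above Dpt, Fbln1 and Pcolce came above Tcf21, and Ddr2 came above Thy1. The authors' deposited RPKM gave the first of these orders, from 160 for Dpt to 2.92 for Ddr2 in controls.

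**Figure D1:**
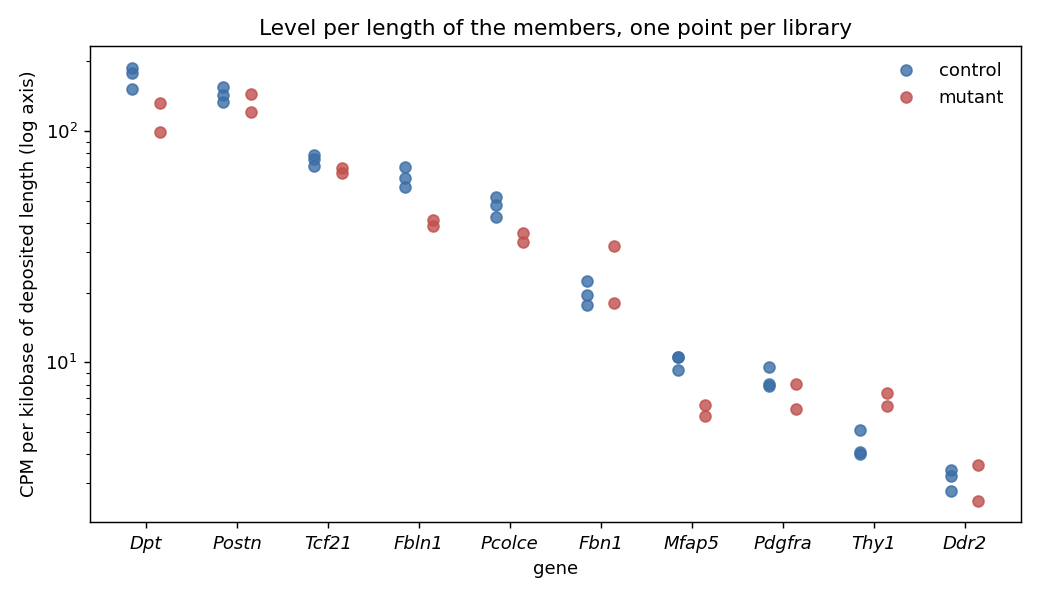
Level of each member per kilobase of deposited gene length (y axis, CPM per kilobase, log scale), with 1 point per library, 3 control (blue) and 2 mutant (red). Dpt and Postn stand highest and Ddr2 lowest, and the mutant points of Mfap5, Fbln1 and Pcolce lie below all of their control points.

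In what follows, library values come in the order controls 2, 4, 6 and mutants 5, 7. Tcf21 (ENSMUSG00000045680; coding span chr10:22537543-22539709, mm9) encodes a basic helix-loop-helix factor that the fibroblast lineage of the heart needs. The controls read 96.6, 92.2 and 86.1 CPM, the mutants 84.5 and 80.7. Both mutants were the lowest of the 5 libraries, yet mutant 5 lay only slightly under control 6. The log2 fold change of -0.15 ± 0.07 (SE, 95% interval -0.31 to 0.01) did not pass edgeR's test (adjusted p = 0.27). Tcf21 also varied least among the controls, with a coefficient of variation of 5.76%.

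Pdgfra (ENSMUSG00000029231; coding span chr5:75558268-75591125, mm9) encodes the alpha receptor for platelet-derived growth factors. The controls read 54.4, 64.7 and 53.5 CPM, the mutants 42.5 and 54.5. Mutant 5 was the lowest library, while mutant 7 lay among the controls. The log2 fold change of -0.25 ± 0.13 (95% interval -0.55 to 0.05) did not pass (adjusted p = 0.34, edgeR). Ddr2 (ENSMUSG00000026674; coding span chr1:171907986-171966125, mm9), a receptor tyrosine kinase that binds fibrillar collagen, read 29.5, 27.8 and 24.0 CPM in control atria against 21.8 and 30.9 in the mutants. The lowest and the highest library were both mutant, and the log2 fold change of -0.04 ± 0.16 had a 95% interval of -0.42 to 0.34 (adjusted p = 0.92, edgeR). It took a positive sign without control 2 (0.022) or without mutant 5 (0.19).

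Thy1 (ENSMUSG00000032011; coding span chr9:43854065-43855534, mm9) encodes a small surface glycoprotein anchored by lipid and is used to sort fibroblasts, but T cells and neurons carry it too. The controls held 419, 525 and 430 reads of it, or 7.11, 8.82 and 6.99 CPM. The mutants read 12.7 and 11.2 CPM, above all 3 controls. Thy1 rose by 0.65 ± 0.14 (SE) on the log2 scale (adjusted p = 0.026, edgeR). The call was lost without control 2 (adjusted p = 0.097), control 6 (0.083) or mutant 5 (0.071), at log2 fold changes of at least 0.55. Of the T cell genes checked, Cd3e had at most 3 reads in any library. The 7 genes of T cells and thymus summed to 1.48 to 2.58 CPM in the controls and 1.98 and 2.04 CPM in the mutants. Markers of Schwann cells and neurons (7 genes) summed to 14.4 to 20.3 CPM in the controls and to 10.3 and 15.1 CPM in mutants 5 and 7. The summed markers of smooth muscle and pericytes and of endothelium, given below, stood above all controls in both mutants. Which cells carried the rise of Thy1 was not tested.

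Postn and Dpt encode matrix proteins abundant in fibroblasts. Postn (ENSMUSG00000027750; coding span chr3:54165065-54194221, mm9) makes periostin, a matricellular protein of the cardiac cushions, the valves and activated fibroblasts. The controls read 1600.1, 1741 and 1492 CPM, the mutants 1355 and 1625. Mutant 5 was the lowest library and mutant 7 the second highest, so the groups overlapped. The log2 fold change of -0.11 ± 0.10 (95% interval -0.35 to 0.12) did not pass (adjusted p = 0.61, edgeR) and was 0.012 without mutant 5. Postn alone gave 53.3% to 58.2% of the reads of the 10 members in each library. The summed level of the members also overlapped between groups, at 2717 to 3103 CPM in the controls and at 2396 and 2794 CPM in the mutants. Without Postn the sum was 1225 to 1402 CPM in the controls and 1041 and 1169 CPM in mutants 5 and 7.

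Dpt (ENSMUSG00000026574; coding span chr1:166726863-166753367, mm9) encodes dermatopontin, a small protein that binds decorin and helps collagen fibrils form. Its levels were 308, 291 and 249 CPM in control atria and 217 and 162 CPM in mutant atria. Both mutants lay below every control, and they differed from each other more than they did for the other lower members. The log2 fold change was -0.58 ± 0.15 (SE, 95% interval -0.92 to -0.23), with an adjusted p of 0.069 in edgeR's test. DESeq2 called it (adjusted p = 0.0011), and so did edgeR without mutant 5 (0.013, log2 fold change -0.81). With sex as a covariate its adjusted p lay at the threshold (0.050). The authors' deposited table gives an adjusted p of 0.0491 for it.

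Pcolce (ENSMUSG00000029718; coding span chr5:138046391-138052556, mm9) encodes the enhancer of the procollagen C-proteinase, a secreted protein that speeds the trimming of fibrillar procollagens. Its levels were 267, 247 and 218 CPM in control atria and 187 and 170.2 CPM in mutant atria. The mutants lay below the controls, closest between mutant 5 and control 6. Pcolce fell by 0.45 ± 0.09 (SE) on the log2 scale (adjusted p = 0.026, edgeR). The call was lost without control 2 (0.094), control 4 (0.096) or mutant 7 (0.11), where the fold change was between -0.45 and -0.38. Pcolce shares 112 exonic bases with Gm36266 on the opposite strand and 112 with its neighbour Fbxo24, a gene of 22 to 56 reads per library.

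Of the microfibril genes, Mfap5 and Fbln1 fell and Fbn1 did not pass. Fbn1 (ENSMUSG00000027204; coding span chr2:125127322-125331339, mm9) encodes fibrillin 1, the thread-forming protein mutated in Marfan syndrome. Fbn1 levels were 279.6, 320.3 and 253 CPM in control atria and 257 and 455 CPM in mutant atria. Mutant 5 lay among the controls and mutant 7 stood alone above all other libraries, 1.77 times as high as mutant 5. The log2 fold change of 0.33 ± 0.27 had a 95% interval of -0.38 to 1.04 (adjusted p = 0.59, edgeR), was -0.15 without mutant 7 and 0.68 without mutant 5 (adjusted p = 0.023). The direction for Fbn1 thus rests on which mutant library is read. In all, 4 members were higher in mutant 7 than in mutant 5: Fbn1, Ddr2, Pdgfra and Postn. These were the 4 of greatest deposited length (6737 to 14296 bases). The other 6, of 1223 to 5158 bases, were lower in mutant 7 than in mutant 5. Whether gene length bears on the difference between the mutants was not tested. Fbn1 shares 2442 exonic bases with Gm9913 on the opposite strand, to which 17 to 32 reads per library were assigned.

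Mfap5 (ENSMUSG00000030116; coding span chr6:122464361-122478449, mm9) encodes a small glycoprotein that binds fibrillin microfibrils. Mfap5 levels were 46.7, 52.8 and 53.2 CPM in control atria and 32.9 and 29.6 CPM in mutant atria. Both mutants were well below the lowest control. Mfap5 fell by 0.70 ± 0.09 (SE) on the log2 scale (adjusted p = 0.0035, edgeR). Its group means were 50.9 ± 3.59 CPM (SD, n = 3) in controls and 31.2 ± 2.39 CPM (SD, n = 2) in mutants. The call was kept in each of 12 alternative analyses, with fold changes from -0.78 to -0.63. The authors' deposited table gives Mfap5 the smallest adjusted p of the members, 1.19e-07.

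Fbln1 (ENSMUSG00000006369; coding span chr15:85036564-85115609, mm9) encodes fibulin 1, a calcium-binding protein of elastic fibres and basement membranes. Fbln1 levels were 314, 257 and 282 CPM in control atria and 185 and 175 CPM in mutant atria. The mutants were close to each other and below every control. Fbln1 fell by 0.66 ± 0.09 (SE) on the log2 scale (adjusted p = 0.0052, edgeR). Its group means were 284 ± 28.4 CPM (SD, n = 3) in controls and 180.1 ± 7.44 CPM (SD, n = 2) in mutants. This call too was kept in all 12 alternatives, with fold changes from -0.73 to -0.58. An adjusted p under 0.05 was given to 5 of 10 members in the authors' deposited table, namely Mfap5, Fbln1, Pcolce, Thy1 and Dpt.

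**Figure D2:**
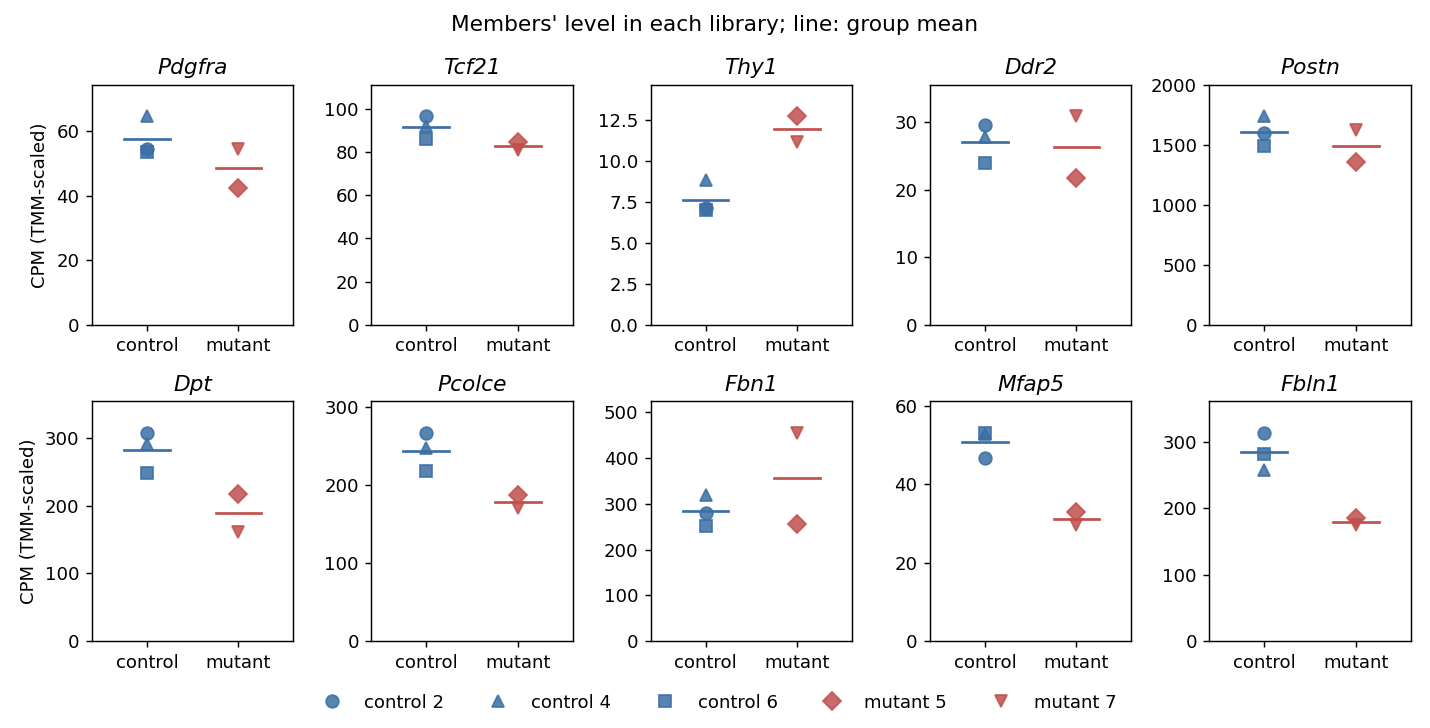
Level of each member in the 5 libraries (y axis from 0, TMM-scaled CPM), with a symbol per library and a line at the group mean. For Mfap5, Fbln1, Pcolce, Dpt and Tcf21 both mutants lie below the controls, for Thy1 both lie above, and for Fbn1 mutant 7 stands alone at 455 CPM.

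**Figure D3:**
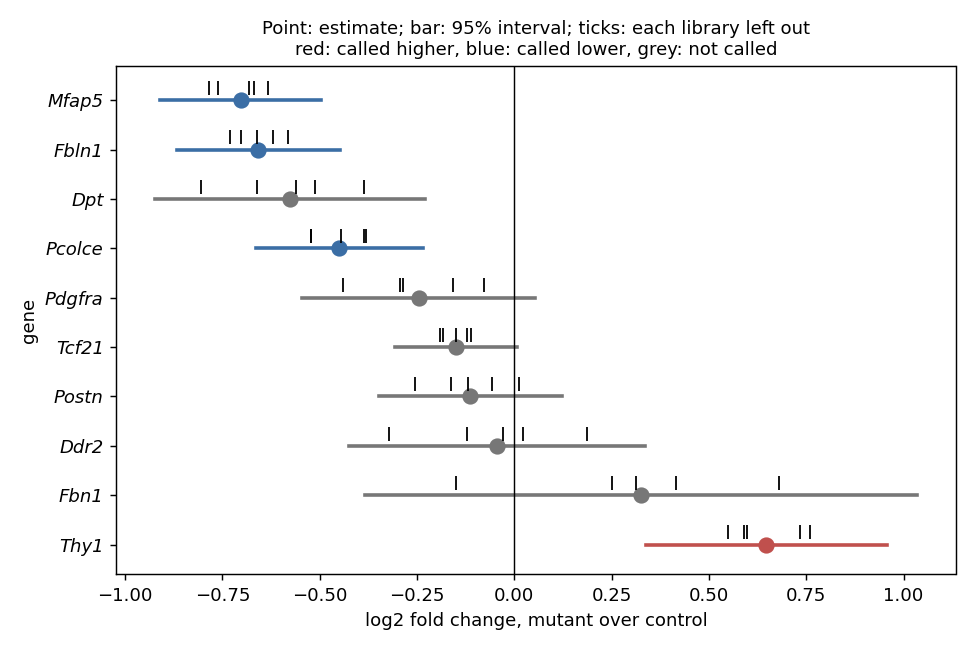
Log2 fold change of each member, mutant over control (x axis), with its 95% interval as a bar and the estimate without each library in turn as black ticks. Mfap5, Fbln1 and Pcolce (blue) were called lower and Thy1 (red) higher, and the ticks of Fbn1, Ddr2 and Postn fall on both sides of 0.

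Ratios of reads within a library do not depend on how libraries are scaled. Per read of Tcf21, Fbln1 gave 2.79 to 3.27 reads in the controls and 2.19 and 2.17 in mutants 5 and 7. The same ratio for Mfap5 was 0.484 to 0.617 in the controls, against 0.390 and 0.366 in mutant atria. For Dpt it was 2.89 to 3.18 against 2.57 and 2.00, and for Pcolce 2.54 to 2.76 against 2.22 and 2.11. Thy1 gave 0.0736 to 0.0957 reads per Tcf21 read in the controls, and 0.151 and 0.139 in mutants 5 and 7. In each of these 5 ratios the groups did not overlap, whereas those of Pdgfra, Ddr2, Postn and Fbn1 to Tcf21 overlapped. The same 5 genes were already apart between groups in CPM, so the ratios reuse those counts and are no separate support. The share of all genes apart in such a ratio was not computed. Between microfibril genes, Mfap5 gave 0.165 to 0.210 reads per Fbn1 read in the controls, 0.128 in mutant 5 and 0.0649 in mutant 7. Mutant 7 is the library in which Fbn1 stood alone above the others. An exact two-sided permutation test of 2 against 3 libraries cannot go below p = 0.1, so these ratios are given without a test.

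The sequence before the gene start is shown for 2 members with different calls, Fbln1, which fell, and Postn, the most abundant in reads, which did not pass. RefSeq (GRCm38.p6) had a start for 8 of the 10 members, Thy1 and Mfap5 not among them. The windows are the 250 bases before the start, on the plus strand, at chr15:85205699-85205948 for Fbln1 and chr3:54360857-54361106 for Postn, and no GENCODE exon lies in either. Both genes have another RefSeq start, whose window is not shown. Capitals mark AAGTG on either strand, the core that NK2 homeodomain proteins such as that of Nkx2-5 bind:
Fbln1: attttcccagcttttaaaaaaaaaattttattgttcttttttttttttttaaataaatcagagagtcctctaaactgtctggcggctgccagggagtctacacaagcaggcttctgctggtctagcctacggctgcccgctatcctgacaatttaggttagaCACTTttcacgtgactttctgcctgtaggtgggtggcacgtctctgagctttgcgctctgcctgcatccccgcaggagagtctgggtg
Postn: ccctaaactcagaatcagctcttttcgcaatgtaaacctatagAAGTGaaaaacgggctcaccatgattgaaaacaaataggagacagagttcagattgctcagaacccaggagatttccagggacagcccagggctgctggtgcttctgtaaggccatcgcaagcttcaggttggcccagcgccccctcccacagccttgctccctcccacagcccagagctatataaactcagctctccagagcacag
Each window shown held 1 match, 83 bases before the start in Fbln1 and 202 bases before it in Postn. The window of the other Postn start held no match. That of the other Fbln1 start, which overlaps the one shown, held 1. A match was also found upstream of Dpt, so 3 of 8 members held one, beside 40.7% of 32851 windows of the same length over all genes. For each motif a member counts if any of its windows matched (10 windows for the 8 members), whereas the share over all genes counts single windows. The E-box CANNTG, the kind of site that basic helix-loop-helix factors such as that of Tcf21 bind, was found for 4 of 8 members (Dpt, Pdgfra, Pcolce and Fbln1) and in 66.2% of all windows. The letters TATAAA were found for Postn, 20 bases before the start shown, and for Ddr2, 179 bases before its start on the opposite strand. The window of the other Postn start did not hold them. They were found in 12.4% of all windows. Both strands were searched, motifs were counted separately and can share bases, and a match describes letters only.

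Relatives of the members were read next, whatever their result. Among fibulins, Efemp1 (fibulin 3) stood at 85.1 to 90.0 CPM in the controls and at 58.2 and 49.6 CPM in the mutants and fell by 0.69 ± 0.08 (SE) on the log2 scale (adjusted p = 0.0024, edgeR), close to the size of the fall of Fbln1. The log2 fold changes of Fbln2 (-0.18 ± 0.13), Fbln5 (0.14 ± 0.25) and Efemp2 (-0.02 ± 0.09) did not pass (adjusted p = 0.49, 0.82 and 0.95, edgeR). Neither did those of the other microfibril glycoprotein genes Mfap2 (-0.24 ± 0.11) and Mfap4 (-0.32 ± 0.18), with adjusted p = 0.29 and 0.40. Fbn2, the second fibrillin gene, stood at 90.5 to 126 CPM in the controls, 117 CPM in mutant 5 and 173 CPM in mutant 7, again highest in mutant 7, with a log2 fold change of 0.40 ± 0.22 (adjusted p = 0.40). Tgfbi, which encodes a fasciclin-domain protein related to periostin, rose by 1.07 ± 0.17 (adjusted p = 0.023). That call was lost without control 2, without mutant 7 or with no filter (highest adjusted p = 0.12). Pdgfrb, the beta receptor, was at 42.6 to 56.7 CPM in the controls, 56.9 CPM in mutant 5 and 97.4 CPM in mutant 7 and did not pass (0.57 ± 0.28, adjusted p = 0.35). The collagen receptor gene Ddr1 (-0.16 ± 0.07, adjusted p = 0.22) and the second enhancer gene Pcolce2, at 0.796 to 1.78 CPM (0.18 ± 0.35, adjusted p = 0.83), did not pass either.

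Other markers of fibroblasts were lower more often than higher. Of 27 tested, 8 fell, 2 rose and 17 did not pass in edgeR's test, and the median log2 fold change was -0.34. Over all tested genes 3.57% were called lower and 3.02% higher, which serves for each list below too. Lum and Dcn, small proteoglycans that coat collagen fibrils, fell by 0.92 ± 0.09 and by 0.80 ± 0.08 (SE). Dcn went from 579 to 612 CPM in the controls to 367 and 320 CPM in mutants 5 and 7. Serping1, a complement inhibitor gene, fell by 0.62 ± 0.09, and Gas1, which encodes a hedgehog co-receptor, fell by 0.36 ± 0.06. Gas1 lost its call without control 2 (adjusted p = 0.062) and has 589 exonic bases in common with the antisense gene Gm48488. The list's 2 rises were Tbx20 (0.62 ± 0.09), a transcription factor gene that heart muscle also expresses, and Smoc2 (1.66 ± 0.27), a matricellular gene. The call of Smoc2 did not hold when control 4, mutant 5 or mutant 7 was left out, with no filter or with sex as a covariate (highest adjusted p = 0.25). The 8 falls became 4 without control 2 and 5 without control 4 or mutant 7, and the 2 rises became 1 without control 4, mutant 5 or mutant 7.

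The wider elastic fibre and microfibril genes showed no common direction, with a median log2 fold change of 0.05 over 26 tested genes. By edgeR's test 4 fell, 1 rose and 21 did not pass, beside 3.57% lower and 3.02% higher over all tested genes. Besides Efemp1, the falls were Adamtsl4 (0.55 ± 0.08 lower on the log2 scale), whose product binds fibrillin, and the elastin interface genes Emilin2 and Emilin3. The rise was that of Adamtsl5 (0.81 ± 0.11), a secreted relative of Adamtsl4. Emilin2 lost its call when control 6, mutant 5 or mutant 7 was left out, and Emilin3 did so in 6 of 12 alternatives (highest adjusted p = 0.11 and 0.13). The falls numbered 2 without control 6 or mutant 5, and the rises 4 without mutant 5.

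Genes of procollagen processing and cross-linking were led by Tll1, a proteinase gene of the family whose activity the product of Pcolce enhances. Tll1 stood at 24.6 to 27.5 CPM in the controls and at 12.3 and 12.8 CPM in the mutants and fell by 1.07 ± 0.09 (SE) on the log2 scale (adjusted p = 5.5e-04, edgeR). The prolyl hydroxylase gene P4ha2 fell by 0.61 ± 0.08, and Leprel4, which encodes a collagen chaperone partner, fell by 0.46 ± 0.07. All 3 were kept in the 12 alternatives. Leprel1, a prolyl 3-hydroxylase gene with 1055 exonic bases shared with an opposite-strand gene, rose by 0.66 ± 0.12 and lost its call when control 4, control 6 or mutant 7 was left out (adjusted p up to 0.069). The rises became 0 without any of those 3 libraries and 2 without mutant 5. In all, 3 fell, 1 rose and 24 did not pass of 28 tested, with a median of -0.05. The shares over all tested genes were 3.57% lower and 3.02% higher. Of 14 genes of PDGF and collagen receptor signalling, the ligand gene Pdgfa, which signals through the receptor made from Pdgfra, was the 1 that passed. It stood at 44.6 to 47.0 CPM in the controls and at 34.3 and 31.3 CPM in the mutants and fell by 0.49 ± 0.08 (adjusted p = 0.0089, edgeR). Pdgfa shares 813 exonic bases with an opposite-strand gene. In the fit of all 5 libraries the median log2 fold change of these 14 genes was 0.03.

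Genes linked with activated fibroblasts were the list with the most rises. Of 22 tested, 5 rose, 2 fell and 15 did not pass in edgeR's test, with a median log2 fold change of 0.44. Beside these stand 3.02% called higher and 3.57% called lower over all tested genes. Acta2, the smooth muscle actin gene, rose by 1.84 ± 0.14 (SE), from 366 to 435 CPM in the controls to 1693 and 1244 CPM in mutants 5 and 7. Ctgf, which encodes a matricellular growth factor, rose by 1.07 ± 0.10 and shares 665 exonic bases with an opposite-strand gene. Thbs1 (0.99 ± 0.17) was lost in 5 of 12 alternatives (highest adjusted p = 0.14). Wisp1, from the same family as Ctgf, fell by 0.65 ± 0.06, and the protease inhibitor gene Timp1 fell by 0.51 ± 0.11, a call lost on leaving out any control or mutant 7 (adjusted p up to 0.11). The 5 rises became 3 without control 2 or control 6, 2 without mutant 7 and 10 without mutant 5, and the 2 falls became 1 without control 2, control 4 or mutant 7. Smooth muscle also expresses Acta2, and markers of smooth muscle and pericytes (7 genes) summed to 1184 to 1296 CPM in the controls and to 1584 and 1614 CPM in the mutants. Of these 7 Des was called higher, a call lost on leaving out any control or with sex as a covariate (adjusted p up to 0.14), and Myh11 stood at 2.03 to 9.14 CPM in the controls and at 29.7 and 27.7 CPM in the mutants (adjusted p = 0.19). Their part in the rise of Acta2 was not tested.

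**Figure D4:**
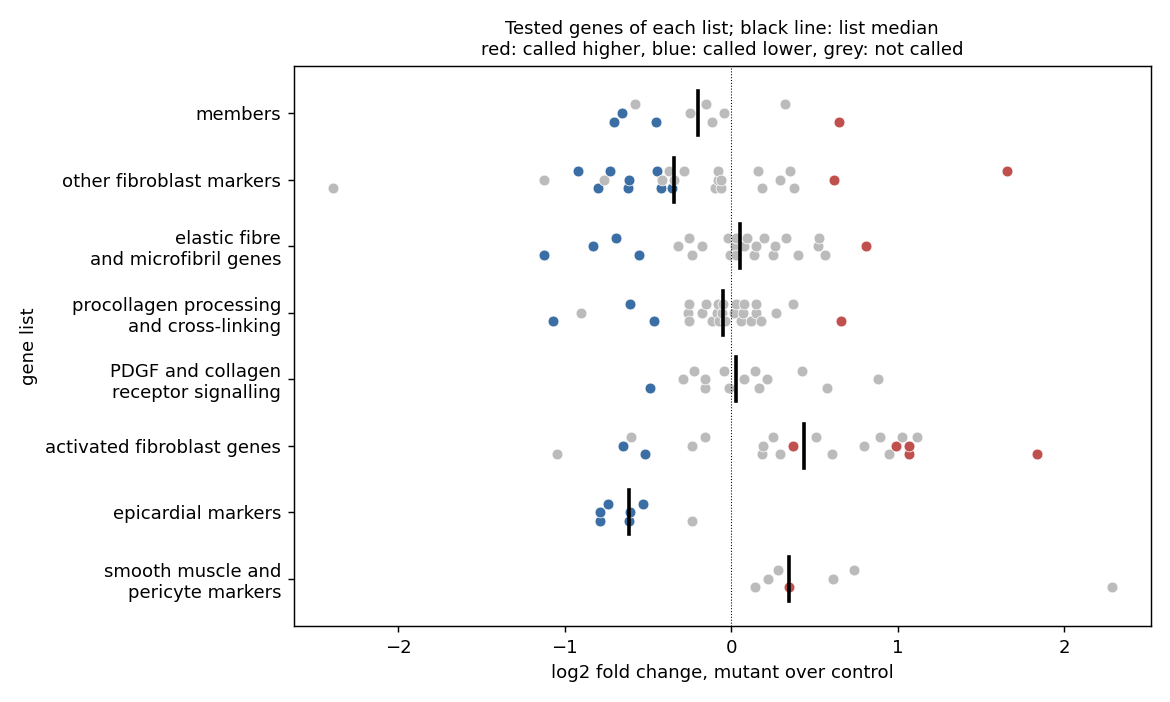
Log2 fold change, mutant over control (x axis), of the members, of the tested genes of 5 pathway lists and of epicardial and smooth muscle markers, 1 point per gene, with the list median as a black line. The medians run from -0.62 for epicardial markers to 0.44 for activated fibroblast genes, and that of the members is -0.20.

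Markers of other cell types moved beside the members. Of 7 epicardial markers, 6 fell (Upk3b, Upk1b, Msln, Krt19, Bnc1 and Lrrn4), with a median log2 fold change of -0.62, and all 6 calls were kept in the 12 alternatives. Their summed level was 1091 to 1268 CPM in the controls and 737 and 744 CPM in the mutants, so the groups did not overlap. Wt1, the factor of the epicardium, stood at 41.7 to 47.2 CPM in the controls and at 34.7 and 39.6 CPM in the mutants (adjusted p = 0.19, edgeR). The log2 fold changes of the 6 lay between -0.79 and -0.53. Of the members called lower, Mfap5 and Fbln1 lay within that range and Pcolce (-0.45) lay outside it. The part of the epicardial genes' cells in the falls of Mfap5, Fbln1 and Pcolce was not tested. Endothelial markers (7 genes) summed to 1371 to 1449 CPM in the controls and to 1551 and 1873 CPM in mutants 5 and 7, with Tie1 called higher, a call lost in 5 of 12 alternatives (adjusted p up to 0.17). Macrophage markers summed to 183 to 206 CPM in the controls and to 226 and 192 CPM in mutants 5 and 7, with Fcgr1 called higher, a call lost on leaving out any 1 of the 5 libraries (adjusted p up to 0.10). Of the adipocyte markers, Cidec, Retn and Lep had at most 3 reads in every library.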

How the data were processed

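Atrial polyA RNA of 5 libraries was analysed. Raw read counts per gene were deposited by the authors in 1 table. Per the submitters' processing notes the build is mm9, and TopHat2 2.0.4, HTSeq 0.5.4p3 and DESeq are named without a role. The strand setting of the counting was not given in the sources used here. The no_feature and ambiguous entries (3.97% to 6.03% and 2.31% to 3.18% of counts) were left out. The deposited RPKM values were pooled by the authors to 1 value per group. They equal the counts divided by the table's gene length and by all counts of the group. The log2 ratio, p-value and adjusted p-value columns are the authors' own comparison, per the file headers. The deposited start and end had the coding span for all 10 members, within 3 bases of GENCODE vM21 (GRCm38), which served for names, exon overlap and exonic length.

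Counts were fitted in edgeR 4.0.16 (R 4.3.3) over the whole table: filterByExpr (minimum count 10, total 15), TMM, robust quasi-likelihood test, two-sided, no covariate, Benjamini-Hochberg adjustment over 17835 genes, threshold 0.05. The standard error is the log2 fold change over the square root of F, with a prior count of 0.125. The fit was tested on simulated data.

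The alternatives were DESeq2's size factors, library totals alone, no filter, a stricter filter (at least 1 CPM in 2 libraries), limma-voom (limma 3.58.1), DESeq2 1.42.0, sex as a covariate (read from Xist and Ddx3y, with 1 male library per group) and leaving out each library. All 10 members are named, with each list's called genes, up to 4 per direction by smallest p, and the members' paralogs. Bmp1 was added beside Tll1. The members and lists were chosen with earlier results of these data known.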

Additional observations from a re-analysis of the deposited data

How the results depend on the processing

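Of 12 alternatives, of which DESeq2 changes the test, the scaling and the genes tested together, none turned the direction of Pdgfra, Tcf21, Thy1, Dpt, Pcolce, Mfap5 or Fbln1. Without 1 library, Ddr2 was 0.022 (control 2) or up to 0.19 (mutant 5) and down to -0.32 (mutant 7), Postn ran from -0.25 to 0.012, and Fbn1 from -0.15 to 0.68 on the log2 scale. Leaving out 1 library, 0 to 1 members were called higher and 2 to 4 lower. In the same way the lists' rises ran from 1 to 2 (other fibroblast markers), 1 to 4 (elastic fibre), 0 to 2 (procollagen), 0 to 4 (PDGF and collagen receptors) and 2 to 10 (activated fibroblast), and their falls from 4 to 8, 2 to 3, 3 to 4, 1 to 2 and 1 to 3. When 1 mutant is left out, the lone one is assumed to vary like the controls. With no filter, 1 other fibroblast marker and 3 activated fibroblast genes rose and 2 receptor genes fell. With sex as a covariate 1 other fibroblast marker rose. DESeq2 called 3 elastic fibre, 2 procollagen and 1 receptor gene higher, and 5 procollagen and 2 receptor genes lower. The members' calls at these settings stayed at 1 higher and 3 or 4 lower. The cause of these shifts was not tested. Scaling by library totals moved the median of all genes to -0.03, and over all genes the calls were then 449 higher and 799 lower, against 538 and 636. With 3 control and 2 mutant libraries the precision is limited by their number. No paired analysis was made, because the sources used here do not say whether control and mutant libraries were paired.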
